A study of Mus musculus with 13 samples.

Results

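The regions described here are stretches of the mouse genome at which LSD1 was called both with and without interleukin 3 (IL3), at which neither STAT5A nor HDAC3 was called in the pooled lists, and which lie away from the ends of genes. They came from chromatin immunoprecipitation with sequencing (ChIP-seq) of STAT5A, LSD1 and HDAC3 in Ba/F3 cells, a mouse pro-B cell line that needs IL3 to grow. All cells were kept in 1 ng/mL IL3 beforehand. The group without IL3 had 6 h of IL3 deprivation, and the group with IL3 had the same 6 h followed by 30 min of IL3 at 10 ng/mL. Each of the 3 proteins had 2 biological replicates in each condition, which makes 12 libraries in 6 groups, and the authors also deposited a list of called regions from the pooled replicates of each group.

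A region was taken when it was in the pooled LSD1 list with IL3 on an assembled chromosome, overlapped the pooled LSD1 list without IL3 by 1 bp or more, overlapped none of the pooled STAT5A and HDAC3 lists of either condition, and had its centre over 1 kb from any bound of a protein-coding gene. Of the 17087 pooled LSD1 regions with IL3, 2424 met this rule (14.2%). They made up 27.1% of the 8935 LSD1 regions called in both conditions, termed constant here, and 2424 of the 4027 constant regions with LSD1 alone. The other 1603 of those 4027 lie within 1 kb of a gene bound and are called gene-end regions. The regions were chosen by the calls of the pooled lists, so their being called in both conditions and without STAT5A or HDAC3 is no finding. The replicate lists hold the reads that made the pooled lists, so their values describe the regions and are no independent support. ChIP-seq lists hold no expression values, so the identity of the cells was not checked.

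LSD1, encoded by Kdm1a, removes methyl groups from lysine 4 of histone H3 and works mostly in the CoREST complex with the deacetylases HDAC1 and HDAC2. It is brought to DNA by transcription factors, among them GFI1 and GFI1B in blood cells, and in blood cells it takes part in switching off enhancers during differentiation. HDAC3 is a histone deacetylase that works in corepressor complexes, and STAT5A is a transcription factor switched on by JAK2 at the IL3 receptor.

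No genome came with the files, so sequence was at hand only where a region met one of the 32851 RefSeq promoter windows of GRCm38.p6, a patch release of the assembly also called mm10, each running from 250 bases before to 50 after an annotated start. Of the 2424 regions, 171 had at least 1 base in such a window and 60 lay wholly inside one. Those starts belong to inner or alternative transcripts or to noncoding genes, since a region within 1 kb of a protein-coding gene's bound was left out. The sequences are those of the 5 highest-scoring of the 60 and, for their genes, the covered parts of the regions in Gata1 and Rreb1. The 7 were chosen after their values were seen. They are written 5′ to 3′ on the strand of the transcript, and capitals mark matches to an ETS motif (AGGAAG) and to a GFI1 motif (AAATCA).
Egfl7, chr2:26586410-26586580, plus strand: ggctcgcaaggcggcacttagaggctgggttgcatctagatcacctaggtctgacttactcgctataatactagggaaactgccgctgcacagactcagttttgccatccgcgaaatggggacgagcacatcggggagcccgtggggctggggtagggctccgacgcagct
Ubxn6, chr17:56075025-56075195, minus strand: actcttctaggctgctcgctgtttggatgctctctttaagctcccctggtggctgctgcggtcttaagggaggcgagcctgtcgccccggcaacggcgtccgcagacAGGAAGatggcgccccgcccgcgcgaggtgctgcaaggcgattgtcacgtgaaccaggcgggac
Ccdc71, chr9:108460351-108460521, plus strand: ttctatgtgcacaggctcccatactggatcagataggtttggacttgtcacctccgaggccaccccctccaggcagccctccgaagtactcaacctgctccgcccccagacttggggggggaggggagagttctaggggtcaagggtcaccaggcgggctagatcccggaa
Tex9, chr9:72491911-72492081, minus strand: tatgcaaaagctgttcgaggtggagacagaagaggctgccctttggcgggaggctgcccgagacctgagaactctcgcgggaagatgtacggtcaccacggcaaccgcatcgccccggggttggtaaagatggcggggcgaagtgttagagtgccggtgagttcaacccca
Pank1, chr19:34877986-34878156, minus strand: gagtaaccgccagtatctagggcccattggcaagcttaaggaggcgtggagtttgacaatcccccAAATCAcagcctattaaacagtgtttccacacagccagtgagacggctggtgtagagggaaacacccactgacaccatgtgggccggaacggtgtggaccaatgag
Gata1, chrX:7968092-7968160, minus strand: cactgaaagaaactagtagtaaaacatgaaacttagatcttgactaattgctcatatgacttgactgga
Rreb1, chr13:37826662-37826757, plus strand: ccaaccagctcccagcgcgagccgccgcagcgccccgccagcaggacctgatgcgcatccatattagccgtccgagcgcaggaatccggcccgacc

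The strongest of these lies 5412 bp from the nearest protein-coding gene bound, at a start of Egfl7, which encodes a secreted protein of the vessel wall. Its score in the pooled lists was 55.2 with IL3 and 73.5 without. In the single LSD1 libraries it scored 90.7 in replicate 1 and 70.1 in replicate 2 without IL3, and 44.6 in replicate 1 and 69.3 in replicate 2 with IL3. It was thus called in all 4 libraries. Scores are the authors' and are not defined in the sources used here. They lie on steps that differ between lists, so they rank regions within 1 list and are set side by side across lists without a comparison. The Ubxn6 region, at a start of a gene for a cofactor of the p97 ATPase, scored 47.5 in the pooled list with IL3 and 60.9 without. It holds the ETS match AGGAAG at base 108 of the printed sequence. It was not called in replicate 1 without IL3 and scored 73.1 in replicate 2 without IL3, 19.8 in replicate 1 with IL3 and 82.6 in replicate 2. The Pank1 region, at a start of a pantothenate kinase gene of coenzyme A synthesis, holds the GFI1 match AAATCA at base 66 and was called in all 4 libraries. The Gata1 region, 8486 bp from the nearest gene bound, scored 28.2 in the pooled list with IL3 and 27.9 without, and was called in 3 of the 4 libraries. Its covered 69 bases held none of the motifs searched, and neither did the covered 96 bases at Rreb1.

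The windows at the regions were rich in C and G. The 136 windows that covered at least 86 bp of one of 125 regions had a median GC content of 62.7% and a median of 21 CpG dinucleotides. Over all windows the medians were 52.7% and 7, and over the 812 windows at gene-end regions they were 65% and 26. Searched on both strands, an ETS motif (AGGAAG or CGGAAG) was in 61% of the 300-bp windows at the regions, in 60.1% at gene-end regions and in 46.5% of all windows. The PU.1 motif GGAAGTG, which overlaps the ETS ones, was in 18.4%, 17.9% and 11.0%, and the CTCF motif in 16.9%, 16.9% and 8.61%. The CTCF and IRF motifs searched were short cores with open positions. These shares at the regions were near those at gene-end regions.

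The shares of the other motifs lay on either side of those over all windows. The GFI1 motif (AAATCA, and also CAATCA) was in 16.9% of the 136 windows against 25.9% of all windows, and the STAT motif TTCNNNGAA in 3.68% against 8.30%. The GATA motif (AGATAA or TGATAA) was in 13.2% at the regions, 6.77% at gene-end regions and 18.6% of all windows. The RUNX motif TGTGGT was in 19.9% at the regions, 12.7% at gene-end regions and 16.8% of all windows, and the AP-1 motif (TGACTCA or TGAGTCA) in 5.88%, 2.09% and 5.20%. The E-box (CAGCTG, with the variants CAGGTG and also CATCTG) was in 39.0%, 32.6% and 44.3%, the CEBP motif TTGCNNAA in 8.09%, 6.77% and 10.8%, and the IRF motif in 2.21%, 2.22% and 3.44%. These shares are of whole windows, which reach beyond the regions. Over the bases of the regions alone, for the 60 that lie wholly in a window, an ETS motif was in 43.3%, the E-box in 18.3%, RUNX in 15%, CTCF in 13.3%, GFI1 and PU.1 in 10% each, GATA and CEBP in 3.33% each and AP-1 in 1.67%. STAT and IRF motifs were in 0 of the 60. The shorter stretches have no set of the same length beside them. No test was made of these shares. The base composition differed between the sets, and its part in the shares was not tested. The windows cover 125 of the 2424 regions, all at annotated starts, and the sequence of the other regions was not analysed here.

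LSD1 calls at the regions varied more between the replicates of a condition than between the conditions. Of the 2424 regions, 113 were called in replicate 1 without IL3 (4.66%), where 8.34% of all constant LSD1 regions and 4.52% of all pooled LSD1 regions with IL3 were called. In replicate 2 without IL3, 2149 were called (88.7%), against 87.2% of constant and 48.8% of all pooled regions. In replicate 1 with IL3, 840 were called (34.7%), against 42.9% and 33.1%. In replicate 2 with IL3, 1486 were called (61.3%), against 71.9% and 57.2%. The 95% Wilson interval on each of these 4 shares of the regions is narrow, the widest being 59.3 to 63.2% in replicate 2 with IL3, and covers counting error alone. The mean share was 48.0% ± 18.8 with IL3 and 46.7% ± 59.4 without (SD, n = 2 each), a difference of 1.32 percentage points. The difference is far smaller than the spread between replicates, and the replicates without IL3 lie on either side of both replicates with IL3. No test is given, since the rule used these calls and since an exact permutation test of 2 libraries against 2 cannot go below p = 0.333.

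The 4 shares did not follow relative depth in order. Taking 1 score step as 1 read, replicate 2 without IL3 was 4.97 times as deep as replicate 1, and the replicates with IL3 were 6.11 and 5.67 times as deep. The pooled library without IL3, which was 5.96 times as deep as its replicate 1, was therefore mostly replicate 2. The library with the lowest share, replicate 1 without IL3, was the shallowest, but among the others the deepest had the lowest share and the shallowest the highest. The part of depth in these shares was not tested.

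**Figure D1:**
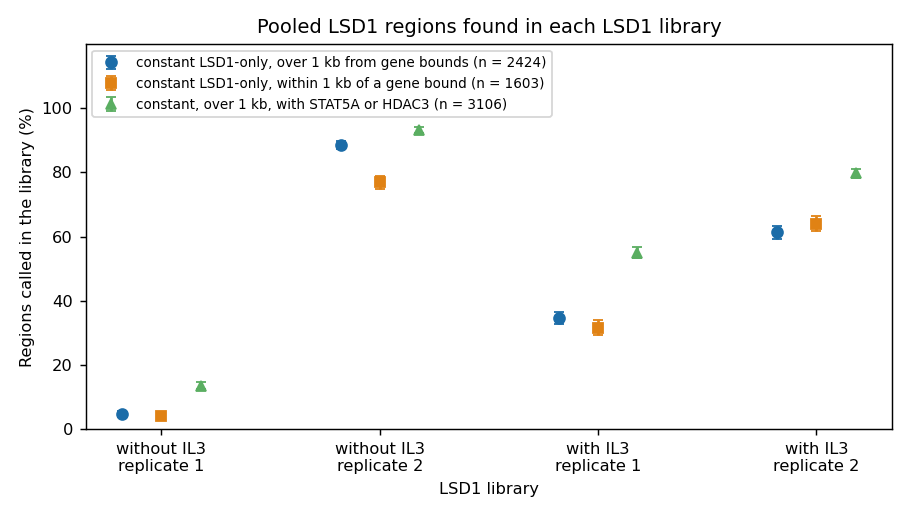
Percent of regions (vertical axis) called in each of the 4 LSD1 libraries (horizontal axis), with 95% Wilson intervals, for the 2424 constant LSD1-only regions over 1 kb from gene bounds (circles), the 1603 gene-end regions (squares) and the 3106 constant regions over 1 kb from gene bounds that also overlap a STAT5A or HDAC3 region (triangles). The circles run from 4.66% in replicate 1 without IL3 to 88.7% in replicate 2 without IL3, with both libraries with IL3 between.

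Most of the regions were found in a replicate of each condition. At least 1 replicate list of each condition held 1587 of the 2424 regions (65.5%), against 73.3% of all constant regions and 40.6% of all pooled ones. Both replicates with IL3 held 558 (23.0%, against 32.6% and 21.3%), and both without IL3 held 105 (4.33%, against 7.63% of constant and 4% of pooled regions). The commonest pattern, with 807 regions (33.3%), was replicate 2 of both conditions and neither replicate 1. The next was replicate 2 without IL3 alone, with 560 regions (23.1%), and then all lists but replicate 1 without IL3, with 457 (18.9%). All 4 lists held 70 regions (2.89%, against 5.53% and 2.89%). These 70 had a median score of 38.5 with IL3 and 87.5 without, and 42 of them lie in a protein-coding gene. No replicate list held 86 regions (3.55%, against 3.19% and 22.3%), whose median score with IL3 was 12.8 and whose highest was 20.5. At 65.5%, the share found in both conditions is below the 73.3% of all constant regions, a set that includes these regions.

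Few regions split by condition in the replicates. Both replicates with IL3 and neither without held 31 regions (1.28%, against 1.84% of constant and 4.71% of all pooled regions). The highest-scoring of the 31, between genes and 14157 bp from Rtca, which encodes an RNA cyclase, scored 42.4 in the pooled list with IL3 and 20.3 without. The next, in the semaphorin gene Sema4a, scored 34.7 and 20.3. The opposite pattern held 8 regions (0.330%, against 0.257% and 0.140%). These counts have unlike ceilings, since, as given above, both replicates without IL3 held 105 regions and both with IL3 held 558. One of the 8 lies in Tal1, which encodes a master factor of blood cell formation, and scored 12.8 in the pooled list with IL3 and 40.6 without. The Tal1 region was also called for STAT5A in replicate 2 without IL3, at 20.4. These regions were singled out after their calls were seen, and the pooled lists call each of them in both conditions.

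Compared with the gene-end regions, which passed the same rule on calls, the regions away from gene ends were called more often in 3 of the 4 LSD1 libraries. The difference was 0.54 percentage points in replicate 1 without IL3, 11.7 in replicate 2 without IL3 and 3.09 in replicate 1 with IL3. In replicate 2 with IL3 it was -2.76. The mean over the libraries was 47.3% for the regions and 44.2% for gene-end regions, and the mean difference was 3.14 percentage points ± 6.18 (SD, n = 4). This is a description, since the same LSD1 reads chose both sets, and the mean difference is smaller than its spread between libraries. Among regions in the upper 50% by score the mean difference was 5.87 points, and with a 50% minimum overlap it was 5.77.

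The regions were of middling strength within the pooled LSD1 lists. In the list with IL3 their scores ran from 7.7 to 137.3, with a median of 16.7 and quartiles of 12.8 and 21.8, where all pooled regions had a median of 15.4. The median region stood at percentile 60.5 of that list. In the list without IL3 the scores ran from 15.2 to 294.2, with a median of 27.9, against 25.4 over the whole list. The gene-end regions had the same median of 16.7 with IL3 and a median of 25.4 without. The 3106 constant regions away from gene ends with STAT5A or HDAC3 had medians of 21.8 and 38. The top 10% of the list with IL3, which with ties is 10.5% of it, took in 10.3% of the regions, 7.11% of gene-end regions and 32.2% of those with STAT5A or HDAC3. Of the 100 highest-scoring LSD1 regions with IL3, 4 were among the 2424 and 87 were away from gene ends with STAT5A or HDAC3. These are descriptions, since LSD1 calls chose the regions.

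Across the regions, the score with IL3 and the score without IL3 had a Spearman correlation of 0.50 (n = 2424). It was 0.53 over the gene-end regions and 0.65 over those with STAT5A or HDAC3. Across the 558 regions in both replicates with IL3, the replicate scores had a Spearman correlation of 0.52, and across the 1352 in replicate 2 of both conditions (55.8%, against 64.3% of constant and 35.3% of all pooled regions), 0.44. Replicate 1 of both conditions held 82 (3.38%, against 6.22% and 3.33%). These are correlations across regions, which share libraries and are not independent, and both pooled lists were cut at a lowest score. The score with IL3 had a Spearman correlation of -0.02 with the distance to the nearest gene bound.

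**Figure D2:**
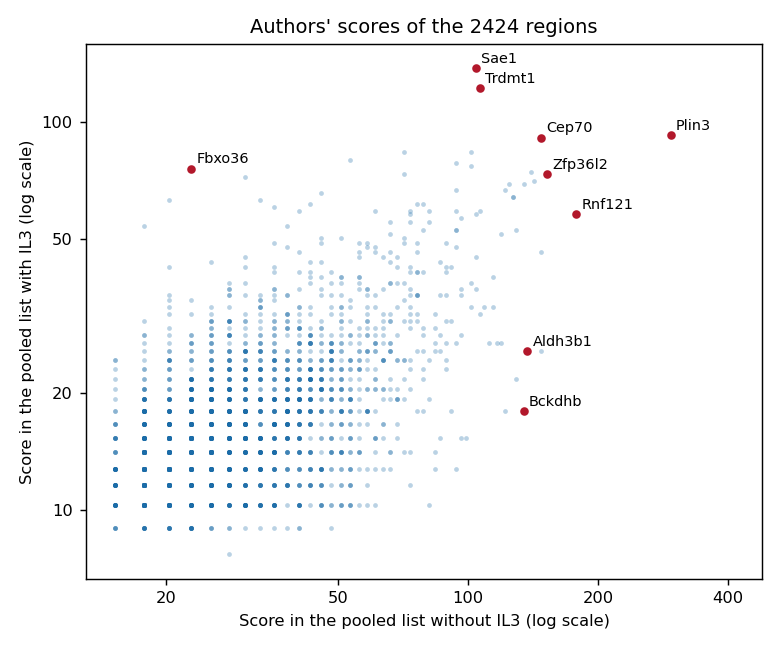
Authors' score of each of the 2424 regions in the pooled LSD1 list without IL3 (horizontal, log scale) and with IL3 (vertical, log scale), each point 1 region, with 9 of the highest-scoring regions marked in red and named by the gene they lie in or the gene with the nearest bound. The lattice of points comes from the score steps, and Fbxo36 (75.7 with IL3, 22.8 without) and Bckdhb (18 with IL3, 134.4 without) lie far from the main cloud.

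The share of regions called in a library rose with the pooled score with IL3, which is made from the same reads as the calls of the libraries with IL3. In the lowest of 5 equal groups by that score, 484 regions with scores up to 12.8, 5.99% were called in replicate 1 with IL3 and 26.7% in replicate 2. In the highest group, 485 regions from 23.1 upward, the shares were 79.4% and 94.8%. In replicate 2 without IL3 the share was high throughout, from 83.9% in the next-lowest group to 95.3% in the highest. In replicate 1 without IL3 it was 1.03% in the lowest group and 14.6% in the highest.

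**Figure D3:**
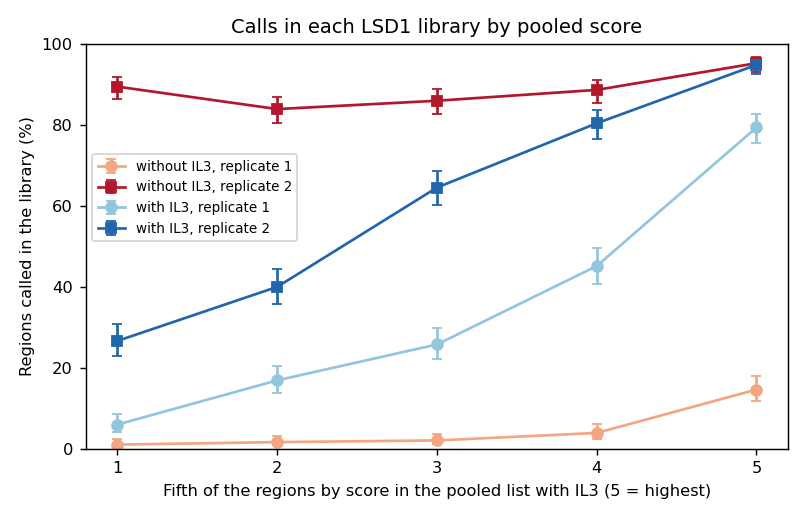
Percent of the regions called in each LSD1 library (vertical axis) against the group of the regions by pooled score with IL3 (horizontal axis, 5 groups of 484 or 485 regions, the highest scores at the right), with 95% Wilson intervals. Both libraries with IL3 climb steeply, to 79.4% and 94.8%, whereas replicate 2 without IL3 stays at 83.9% or more and replicate 1 without IL3 at 14.6% or less.

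Most of the 20 highest-scoring regions with IL3 were found in every library. Of the 20, 12 were called in all 4 LSD1 libraries and 11 lie in a protein-coding gene, and their scores ran from 65.5 to 137.3. Of the 20 highest without IL3, with scores from 119.2 to 294.2, 15 were called in all 4 and 10 lie in a gene. Of these, 8 were also among the 20 with IL3. All 4 libraries held 2.89% of the regions described here, 5.53% of all constant regions and 2.89% of all pooled regions. The top regions were picked by pooled scores, which are made from the same reads as the calls. Their high call shares are thus partly built in, and these counts are descriptions. The highest with IL3 lies in Sae1, which encodes a subunit of the SUMO-activating enzyme (chr7:16326249-16326419). It scored 137.3 in the pooled list with IL3 and 104 without. In the libraries without IL3 it scored 75.6 in replicate 1 and 109.7 in replicate 2, and in those with IL3 113.9 and 159.9. The next, 12565 bp from Trdmt1, a transfer RNA methyltransferase gene, scored 121.9 with IL3 and 106.5 without, and was called in all 4 libraries.

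The highest region without IL3 lies in Plin3, which encodes a lipid droplet coat protein (chr17:56289361-56289531), only 1065 bp from the gene's bound. It scored 294.2 in the pooled list without IL3 and 92.4 with IL3. Its scores were 196.6 and 316.9 in replicates 1 and 2 without IL3, and 101.5 and 82.6 with IL3. It ranked 9 of 16886 regions without IL3 and 77 of 17087 with IL3, near the top of both lists. Bckdhb, a gene of branched-chain amino acid breakdown, held a region that ranked 128 without IL3, with a score of 134.4, and 5715 with IL3, with a score of 18. That region was called in replicate 2 of each condition and in neither replicate 1. A pooled HDAC3 region without IL3, which scored 20 in its own list, lay 161 bp from it, centre to centre. The region in Fbxo36, an F-box protein gene, went the other way, ranking 139 with IL3 with a score of 75.7 and 9235 without with a score of 22.8. It was called in 3 libraries and not in replicate 1 without IL3. These ranks come from lists of nearly the same length but unlike depth, and no test was made of them.

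Tcf7l2 and Ern1 were among the genes that hold a top region. The region in Tcf7l2, a transcription factor of the Wnt pathway, scored 70.6 with IL3 and 142 without. The region in Ern1, which encodes the IRE1 sensor of endoplasmic reticulum stress, scored 83.4 and 101.4, and 2 more regions lie in the same gene. For LSD1, Tcf7l2 was called in all 4 libraries and Ern1 in 3. The Tcf7l2 region was also called for HDAC3 in replicate 1 without IL3, at 33.8.

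A further top region lies far from any protein-coding gene. Its nearest bound is at Zfp36l2, which encodes a zinc finger protein of messenger RNA decay, 140680 bp away. It scored 73.2 with IL3 and 152.2 without and was called in all 4 libraries. An annotated start lay 1342 bp from it. Pooled regions of the other proteins also lay near it, HDAC3 without IL3 at 236 bp and STAT5A with IL3 at 1362 bp. Other top regions lie in or nearest to genes with varied products. They include the centrosomal gene Cep70, the taste channel gene Trpm5, the sialyltransferase genes St6galnac6 and St3gal2, the phosphodiesterase genes Pde3b and Pde6b, the small GTPase regulator gene Arhgap25, the autophagy gene Atg10 and the calcium channel gene Itpr2. Zc3hc1, Slc37a3, Smim41, Rnf222, Eml1, Rnf121, Aldh3b1, Dnah8, Scd3, Chsy1, Crybg1 and Ccdc12 are also among them. The Arhgap25 region was also called for HDAC3 in replicate 1 without IL3, at 33.8. Those of Smim41 and Scd3 were also called for STAT5A in replicate 1 with IL3, at 52.2 and 37.3. Close to the Zc3hc1 region lay pooled STAT5A regions, at 203 bp without IL3 and 195 bp with IL3. A pooled HDAC3 region without IL3 lay 312 bp from it.

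By position the regions were much like other LSD1 regions away from gene ends. Of the 2424, 1324 had their centre inside a protein-coding gene, 54.6% with a 95% Wilson interval of 52.6 to 56.6%. The share was 53.7% over the 7691 other LSD1 regions with IL3 over 1 kb from gene bounds, with an interval of 52.6 to 54.8%. The reference gives gene bounds without exons, so intron and exon were not told apart. The median distance to the nearest gene bound was 12093 bp for the regions. It was 12484 bp for the 4585 such regions called with IL3 alone and 15540.5 bp for the 3106 constant ones with STAT5A or HDAC3. Of the regions, 27.6% lie 1 to 5 kb from a bound (25.8 to 29.4%), against 21.6% of those with STAT5A or HDAC3 (20.2 to 23.1%). Over 100 kb away lie 5.49% (4.65 to 6.47%) and 8.31% (7.39 to 9.33%). No test of these differences was made, and regions are not replicates.

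**Figure D4:**
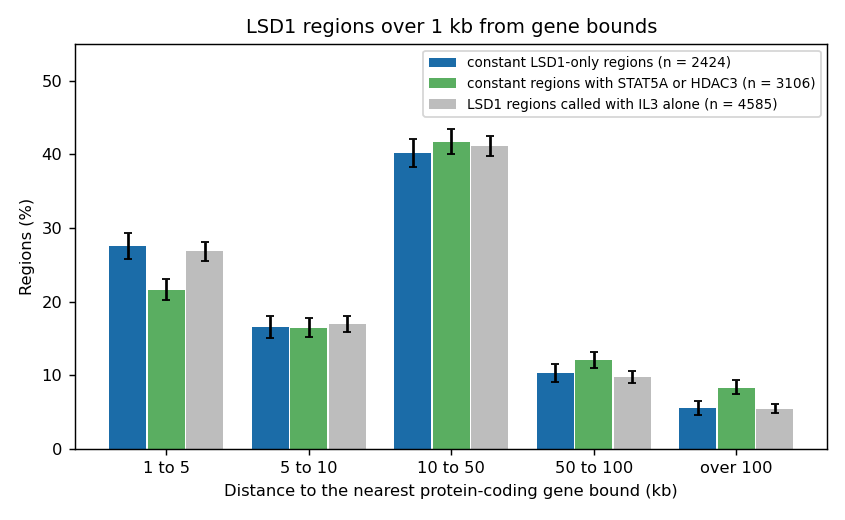
Percent of regions (vertical axis) by distance from their centre to the nearest protein-coding gene bound in kb (horizontal axis), with 95% Wilson intervals, for the 2424 regions, the 3106 constant regions with STAT5A or HDAC3 and the 4585 LSD1 regions called with IL3 alone, all over 1 kb from gene bounds. The tallest bars of each set are at 10 to 50 kb, 40.2% for the 2424 regions, and the regions exceed those with STAT5A or HDAC3 at 1 to 5 kb, 27.6% against 21.6%.

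Away from gene bounds does not mean away from every start. An annotated start of any gene, as the windows give them, lay within 1 kb of 289 regions (11.9%), against 13% of the 7691 other regions. A start of a protein-coding gene lay within 1 kb of 215 (8.87%). The centre was inside a long noncoding RNA gene for 319 regions (13.2%), the same share as among the other regions. Inside genes and between genes, the median scores of the regions were the same, 16.7 with IL3 and 27.9 without. The 67 regions that lie between genes and over 100 kb from any bound had a median of 16.7 with IL3 and 30.4 without. A region just inside the 1 kb limit, 1001 bp from the kelch-repeat protein gene Mkln1, scored 20.5 with IL3 and 43.1 without, and one as far from Bach1, a transcription factor gene, scored 10.3 and 25.4. Just outside it, a region 999 bp from Arid4a, which encodes a chromatin protein, scored 35.9 and 53.3, and one 993 bp from Msn, the moesin gene, scored 20.5 and 17.8.

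STAT5A lay near many of the regions. The nearest pooled STAT5A region with IL3 was at a median of 11313 bp, centre to centre. It was within 1 kb of 343 regions (14.2%) and within 10 kb of 1133 (46.7%). For gene-end regions the median was 10032 bp and the shares 27.4% and 49.9%. Without IL3 the nearest STAT5A region was at a median of 46979 bp, from a list of 5043 regions in place of 15543. HDAC3 was farther off, at a median of 79253.5 bp without IL3, where its pooled list had 3347 regions, and 315209 bp with IL3, where it had 1208. The lists differ in length, and the part of length in these distances was not tested. Another LSD1 region of the list with IL3 was within 10 kb of 1195 of the regions (49.3%). Among themselves, 300 regions (12.4%) had another of the 2424 within 10 kb, in 143 groups, of which the largest held 5.

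Some regions left free by the pooled lists were called in a single STAT5A or HDAC3 library. A STAT5A replicate list held 191 of the 2424 (7.88%), against 38.9% of all pooled LSD1 regions, and an HDAC3 replicate list held 42 (1.73%, against 9.09%). Either held 229 (9.45%, against 41.3%). The rule, which leaves out regions with pooled calls, makes these shares low. Without IL3, STAT5A was called at 5 regions in replicate 1 and 52 in replicate 2, where 1.20% and 13.6% of all pooled LSD1 regions were called. With IL3 it was called at 82 and 60, against 20% and 18.8%. Without IL3, HDAC3 was called at 33 and 1 of the regions, against 6.84% and 1.66% of all pooled ones, and with IL3 at 8 and 2, against 3.03% and 0.269%. The gene-end regions had STAT5A replicate calls at 14% and HDAC3 calls at 0.37%. With the calls of single libraries left out as well, 2195 regions remained.

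Genes with several of the regions were mostly long. In all, 1140 protein-coding genes held a region, 162 of them at least 2 and 6 at least 4. The median length of a gene with a region was 61 kb, against 17.2 kb over all 21883 genes. The share of genes with a region in them or within 10 kb was 3.58% in the shortest of 4 equal groups of genes by length and 15.2% in the longest. Gse1, whose product is found with LSD1 and HDAC complexes, held the most, 7 in 352.9 kb of chromosome 8, beside 30 other LSD1 regions over 1 kb from gene bounds. The scores of the 7 in the pooled list with IL3 were 11.6 to 27, and without IL3 20.3 to 63.4. The one at 27 was also called for STAT5A in replicate 2 without IL3, at 23.8. The one at 19.3 with IL3 was also called for HDAC3 in replicate 1 without IL3, at 28.2. For LSD1, none of the 7 was called in replicate 1 without IL3, 5 were called in replicate 2 without IL3, and each was called in exactly 1 replicate with IL3. Over all 2424 regions the shares were 4.66% and 88.7% in replicates 1 and 2 without IL3, and 34.7% and 61.3% with IL3.

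Pstpip1 held 5 regions in 50.4 kb, a denser run, all within chr9:56089842-56108477. It encodes an adaptor of the actin cytoskeleton in blood cells. Their scores with IL3 were 14.1 to 28.2 and without IL3 30.4 to 86.2, and the highest of the 5 was called in all 4 LSD1 libraries. All 5 were called in LSD1 replicate 2 without IL3, as were 88.7% of the 2424 regions. The nearest STAT5A regions with IL3 were 9803 to 28268 bp away, and HDAC3 regions 9863 to 28328 bp away without IL3 and 1039884 to 1058349 bp away with IL3. Sgms1, a sphingomyelin synthase gene, held 5 in 267.2 kb, with scores of 14.1 to 35.9 with IL3. Its highest was also called for STAT5A in replicate 1 with IL3, at 26.1, and for HDAC3 in replicate 1 without IL3, at 39.5. Extl3, of heparan sulfate synthesis, the zinc finger gene Trerf1 and the kinase gene Mast4 held 4 each. Baiap2l2, Ern1, Pkd2l1 and Stat5b were among the genes with 3.

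Regions lay in or within 10 kb of 1895 of the 21883 protein-coding genes (8.66%). Of the 224 genes in 8 lists, drawn up for blood cell identity, the IL3 pathway, the LSD1 complexes and other functions, 50 had one. The lists, which were chosen with earlier results of these data known, differ from all genes in length. Other LSD1 regions over 1 kb from gene bounds were at 4427 of all genes, and at more genes than the constant LSD1-only regions in each list but that of other tissues, where the numbers were equal. The counts are descriptions, and no set test was run.

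Haematopoietic transcription factor genes had 14 of 40 (35%, against 8.66% of all genes). The highest was Klf13, a Krüppel-like factor gene, with 47.5 in the pooled list with IL3 and 93.8 without. It was called in all 4 libraries, at 60.5 and 100.6 without IL3 and 47 and 50.6 with IL3. Erg, an ETS factor gene of blood stem cells, held 2 regions, of which the higher scored 35.9 with IL3 and 35.5 without. It was not called in replicate 1 without IL3 and was called in the other three libraries. Gata1, the erythroid and mast cell factor gene, held the region given above, and its partner gene Zfpm1 had 3, the highest at 25.7 and 35.5. Ikzf2 and Mitf, which encode a zinc finger factor of lymphoid cells and a mast cell factor, each had 1 at 20.5 with IL3. Other LSD1 regions over 1 kb from gene bounds were at 27 of these 40 genes.

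Genes of the IL3 receptor, JAK-STAT signalling and STAT5 targets had 12 of 35 (34.3%, against 8.66% of all genes). With the region in the gene itself the count was 5 of 35, against 5.21% of all genes. With regions called in a replicate of each condition it was 6 of 35, against 5.88%. The 3 highest regions of the 12 genes were at genes for inhibitors of cytokine signalling that STAT5 switches on. The region 2526 bp from Socs3 scored 42.4 with IL3 and 30.4 without, and was called in replicate 2 without IL3 at 36.6 and in both replicates with IL3 at 22.3 and 74.6. The nearest STAT5A region with IL3 was 5686 bp from it and scored 288.4 in its own list. The region 3402 bp from Cish scored 38.5 with IL3 and 65.9 without, and was called in all 4 libraries. A STAT5A region with IL3 lay 1727 bp from it and an HDAC3 region with IL3 1801 bp from it. By the rule the LSD1 regions overlap neither of these.

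Near Socs1 lay 2 regions, and the one 1695 bp from the gene scored 30.8 with IL3 and 73.5 without, with a STAT5A region with IL3 1299 bp away. Stat5b held 3 regions, the highest at 28.2 with IL3 and 43.1 without, which also counts for its neighbour Stat5a. A STAT5A region with IL3 lay 932 bp from that region. Lif, a cytokine gene, held 1 that scored 24.4 in the pooled list with IL3 and 22.8 in the pooled list without. It was in both replicate lists with IL3 and in neither replicate list without. A STAT5A region with IL3 lay 456 bp from it. Other LSD1 regions over 1 kb from gene bounds were at 27 of these 35 genes.

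Mast cell and myeloid genes had 7 of 28 (25%, against 8.66% of all genes). Csf3r, the receptor gene for granulocyte colony-stimulating factor, held a region at 52.6 with IL3 and 93.8 without, called in all 4 libraries at 105.8 and 91.4 without IL3 and 39.6 and 66.6 with IL3. Laptm5, a lysosomal protein gene of blood cells, held one at 38.5 and 65.9. Hdc, the gene of histamine synthesis, came next with one at 20.5 and 17.8, and Plek, Mpo and Fcer1g had lower ones. The region counted for Mpo lies in Lpo. B lineage genes had 2 of 28, namely Dntt, the terminal transferase gene, at 21.8 with IL3 and 38 without, and the octamer factor gene Pou2f2 at 10.3 and 15.2. At 2 of 28 (7.14%), the B lineage genes lay near the 8.66% of all genes.

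Genes of the LSD1 and CoREST complexes had 4 of 23 (17.4%, against 8.66% of all genes). Among them were Gse1, Rreb1 and Zmym2, whose highest regions scored 27, 20.5 and 11.6 with IL3. The TGF-beta and SMAD list had 3 of 20 (15%), led by Smad3 at 19.3, and the actin, adhesion and migration list had 3 of 20 (15%), led by Dock2 at 25.7. Tissue genes of other lineages had 5 of 30 (16.7%), with scores of 11.6 to 16.7 with IL3, among them Tg, Rbfox3, Apoa2 and Cdh1. The region counted for Apoa2 lies in Fcer1g, and that in Tg also lies in Sla.

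**Figure D5:**
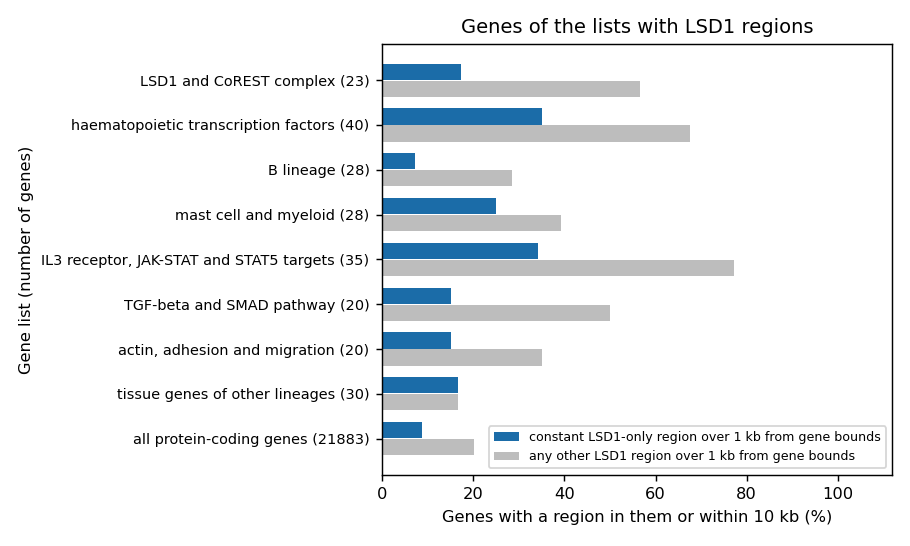
Percent of the genes of each list (horizontal axis) with a constant LSD1-only region over 1 kb from gene bounds in them or within 10 kb (blue), and with any other LSD1 region over 1 kb from gene bounds (grey), for 8 lists with the number of genes in brackets and all 21883 protein-coding genes at the bottom. The blue bars run from 7.14% for the B lineage to 35% for haematopoietic transcription factors, with 8.66% over all genes.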

How the data were processed

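STAT5A, LSD1 and HDAC3 ChIP-seq regions of Ba/F3 cells were used as the authors deposited them, 1 list for each of 12 libraries and 1 pooled list for each of 6 groups. No source used here defines the deposited score of a region. Per the submitters' processing notes, the build was mm10 and the tools were HOMER 4.8, Picard 1.92, Bowtie2 2.1.0 and Trimmomatic 0.30. Their settings and the peak control and threshold were not given in the sources used here. The input library was not used here.

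From the lists, overlaps of 1 bp or more, distances between centres and RefSeq gene bounds (GRCm38.p6, 21883 protein-coding genes on assembled chromosomes), and 95% Wilson intervals were computed with Python 3.11.15, numpy 2.4.6, scipy 1.17.1 and pandas 2.3.3. The class rule was tested on simulated data. The planned exact permutation tests over the 4 LSD1 libraries gave p = 1 for the conditions (smallest possible 0.333) and p = 0.375 for position (smallest 0.125). They could not reach 0.05 and used calls that chose the members, so nothing was read from them. In each list, low scores lie within 0.1 of whole multiples of a step, whose inverse was read as relative depth. The members and gene lists were chosen with earlier results of these data known. Named genes are those at the 20 regions with the top scores in either pooled LSD1 list, the 10 with most regions, up to 6 per list and those at the 1 kb limit. Where many genes held 3 regions, ties were ordered by density. The regions split by condition and the printed sequences were chosen after their values were seen. The planned motif comparison over whole regions needs a genome and was replaced by promoter windows. Values at a few genes that this rule names are not reported here.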

Additional observations from a re-analysis of the deposited data

How the results depend on the processing

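Against 2424 regions, 1126 remained in the upper 50% of both pooled LSD1 lists, 1587 with a call in a replicate list of each condition (chosen after seeing the data), and 142 to 2824 with 1 replicate list in place of the pooled ones. The lowest count was without replicate 2 and used the replicate 1 lists alone, of which the one without IL3 held 1005 regions. The difference in call share between conditions, 1.32 percentage points, ran from -40.7 without replicate 1 without IL3 through -12.0 without replicate 2 with IL3 to 43.3 without replicate 2 without IL3, so its direction rests on single libraries. It was also 14.6 without replicate 1 with IL3, 19.9 in the upper 50% by score and 5.84 with 50% overlap. The labels give replicates only numbers. With the replicate block, the difference was 29.99 points in replicate 1 and -27.35 in replicate 2. The mean of these is 1.32 by arithmetic, so the block could not change that value and is no check of it. The difference between the regions and gene-end regions was 3.14 points. It ran from 0.289 to 5.10 with 1 library left out, and was 5.77 with 50% overlap and 5.87 in the upper 50% by score.

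The share inside a gene was 51.3% at 5 kb from gene bounds and 51.4 to 52.1% with 1 replicate left out. The share called in a STAT5A or HDAC3 replicate list was 21.3% when calls within 500 bp counted and 12.5% in the upper 50% by score. The median percentile was 62.7 in the list without IL3 and 71.5 for regions called in each condition. List genes with a region numbered 98 at 50 kb (20.2% of all genes), 28 in the upper 50% (4.70%) and 33 for regions called in each condition (5.88%), against 50 (8.66%). The causes were not tested. The motif comparison was made over promoter windows and, for 60 regions, over the region alone (chosen after seeing the data), and was not run over all the regions. Only 2 libraries stand for each condition.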

Other observations

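A microRNA gene lay within 1 kb of 5 of the constant LSD1-only regions away from gene ends. That is 0.206%, near the 0.260% of the 7691 other LSD1 regions over 1 kb from gene bounds. The one 165 bp from Mir760 scored 18 in the pooled list with IL3 and 22.8 without, and the one 640 bp from Mirlet7i, a let-7 gene, scored 21.8 and 22.8. The highest-scoring of the 5, at 30.8 with IL3 and 38 without, lies in Dalrd3, 984 bp from Mir425. The one 442 bp from Mir5617, in Syn1, scored 10.3 with IL3 and 20.3 without. By chromosome, 8.54% of the regions lay on chromosome 2 and 8.13% on chromosome 11, against 7.01% and 7.37% of the other LSD1 regions over 1 kb from gene bounds. Chromosome X held 43 regions (1.77%, against 1.26%). These are values with no test.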
